A study of Mus musculus with 30 samples.

Results

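The lens crystallins are the proteins that fill the fibre cells of the eye lens. The α-crystallins, encoded by Cryaa and Cryab, belong to the small heat-shock proteins and act as chaperones that keep other proteins in solution. The β-crystallins, with the acidic members Cryba1, Cryba2 and Cryba4 and the basic members Crybb1, Crybb2 and Crybb3, and the γ-crystallins, to which Crygs belongs, are structural proteins of the lens. Cryab is also made outside the lens, in muscle, heart and glia, and lies next to Hspb2, which encodes another small heat-shock protein. The 9 genes were chosen by name, and every probe that the array design gives for them was used, which came to 12 of 41174 probes and 9 of 28104 named genes. Cryaa, Cryab and Crybb1 had 2 probes each and the other 6 genes had 1.

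RNA was measured in the whole eye of 7 wild-type (WT) and 7 Per3-/- male adult mice and in a block of the hypothalamus of 8 mice of each genotype, with 1 Agilent array of 60-base probes and 1 dye per mouse and tissue. Per3 encodes a Period protein of the circadian clock. All mice, of both genotypes, were on a C57Bl/6J background and were taken in the light phase at the end of 17 cycles of 3.5 h of light and 3.5 h of darkness, so no group was kept without this schedule. The eyes of WT mouse 2 and Per3-/- mouse 1 were not analysed here. Arrays of both tissues that share genotype and number were taken as the same mouse, because they were deposited under the same animal number, although the labels do not state it. Values are log2 of the background-subtracted signal relative to the 75th percentile of the same array, so that 0 is a spot at that percentile, and a level of 1 probe is not set against that of another because probes bind with different strength.

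The 75th percentile itself lay between 1131 and 1644 on the eye arrays and between 1408 and 2207 on those of the hypothalamus, and 67.9% to 80.7% of the probes were well above background. The eye arrays were on other slides than the hypothalamus arrays. Tissue therefore cannot be told apart from slide or from anything else that went with the slides. Each tissue was spread over 4 slides that held both genotypes. In the eye 11 of 11 rod and cone genes, 13 of 13 genes of the lens fibre and 6 of 6 corneal genes were well above background on all 14 arrays, as were 8 of 8 skeletal muscle genes. Per3 was lower in Per3-/- mice by 0.45 on the log2 scale in whole eye (SE 0.23, limma adjusted p = 1) and by 0.51 in hypothalamic tissue (SE 0.089, adjusted p = 0.067). This array has 1 Per3 probe, whose place relative to the disrupted part of the gene is not given in the sources used here, so it does not check the labels.

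Probe sequences are given for Cryab and Crybb1. The probe with the highest mean signal in the eye is called the reported probe of a gene with 2 probes, or probe 1, and the other is called the second probe, or probe 2. Both Cryab probes are shown because they gave opposite results between the tissues. The reported Cryab probe lies at chr9:50564440-50564499 on mm9, base 886 of its transcript in the array annotation. The second lies 5′ of it at chr9:50561281-50561340, base 418 of the same transcript. Whether both probes lie in every transcript of Cryab was not checked. Bases 18 to 47 of the second probe, in which the letters TATATAA are in capitals, are given beside the whole reported probe.
Cryab, reported probe A_52_P106482: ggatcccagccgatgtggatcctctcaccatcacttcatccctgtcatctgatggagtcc
Cryab, second probe A_51_P504423: agaagactgcaTATATAAggggccggctgg
TATATAA starts at base 29 of the second probe, and 225 of the 41174 probes (0.546%) hold it. The Crybb1 probes are shown because they are 2 separate readings of the same transcript. They start at bases 562 and 455 of it, and on mm9 they span chr5:112696433-112698351 and chr5:112692655-112696385, which is longer than 60 bases and so crosses an intron in each case.
Crybb1, reported probe A_52_P643798: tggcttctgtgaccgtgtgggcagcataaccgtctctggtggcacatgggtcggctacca
Crybb1, second probe A_51_P334063: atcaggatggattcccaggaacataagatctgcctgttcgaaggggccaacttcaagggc
Cryba4, Crybb1, Crybb2 and Crybb3 all lie on chromosome 5, whereas Cryaa lies on 17, Cryab on 9, Cryba1 on 11, Cryba2 on 1 and Crygs on 16.

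RefSeq promoter sequence on GRCm38.p6 was at hand for 8 of the 9 genes, Cryab being the other, and the 250 bases before the start of each gene were searched on both strands. The letters TGCTGAC, which are part of the recognition element of the MAF family of transcription factors, were found in those of Cryaa, Cryba1, Cryba4 and Crybb1, or 4 of 8, and in 3.81% of all 32851 windows. The letters TGACTCA stood in Cryba2 and Crygs, or 2 of 8, and in 4.46% of all windows. They hold no TGCTGAC and overlap none. The letters were chosen after the sequences had been seen, and a match is a description of the letters only. The 150 bases before the start of the 4 genes are given 5′ to 3′ on the strand of the gene, with TGCTGAC and TATA-like letters in capitals.
Cryaa (chr17:31677781-31677930, + strand): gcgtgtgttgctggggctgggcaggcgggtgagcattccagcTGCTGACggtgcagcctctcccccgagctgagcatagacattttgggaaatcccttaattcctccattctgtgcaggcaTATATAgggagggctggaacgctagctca
Cryba1 (chr11:77725294-77725443, - strand): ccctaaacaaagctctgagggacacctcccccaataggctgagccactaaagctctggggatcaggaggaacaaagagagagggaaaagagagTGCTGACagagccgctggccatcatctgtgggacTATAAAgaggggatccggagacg
Cryba4 (chr5:112252519-112252668, - strand): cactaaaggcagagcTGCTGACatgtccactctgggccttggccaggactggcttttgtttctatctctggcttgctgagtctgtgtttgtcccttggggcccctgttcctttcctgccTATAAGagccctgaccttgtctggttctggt
Crybb1 (chr5:112255670-112255819, + strand): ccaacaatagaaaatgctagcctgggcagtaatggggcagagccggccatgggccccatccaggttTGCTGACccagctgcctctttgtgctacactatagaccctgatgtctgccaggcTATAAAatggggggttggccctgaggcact
Counted from the start of the gene, TGCTGAC began at -108 in Cryaa, -57 in Cryba1, -182 and -135 in Cryba4 and -84 in Crybb1. The letters TATAAA, which 12.4% of all windows hold on either strand, began at -23 in Cryba1, at -30 in Crybb1 and at -25 in Crygs. Cryba4 held TATAAG (6.65% of windows) at -31, Crybb2 held it on the other strand at -151, and Cryaa held TATATA (5.25% of windows) at -29.

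In the eye the Cryaa probes were at the upper end of the scanner's range. The reported Cryaa probe had a lowest, median and highest signal of 8.49, 8.75 and 8.86 in the 7 WT eyes and of 8.48, 8.66 and 8.89 in the 7 Per3-/- eyes. No spot carried the software's saturation mark. The raw signal of this spot was, however, at the top of the scanner's range on 11 of 14 eye arrays, 6 of them WT and 5 Per3-/-. On those arrays the probe could not show a higher RNA level. The second Cryaa probe reached between 57.0% and 92.5% of that range, and ran from 7.93 through 8.40 to 8.54 in WT and from 7.97 through 8.28 to 8.75 in Per3-/- eyes. The genotypes overlapped on both probes.

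The reported Cryab probe stood at 7.35, 7.58 and 7.78 (lowest, median, highest) in WT eyes and at 7.10, 7.62 and 8.02 in Per3-/- eyes. The second Cryab probe gave much lower values, from -0.06 through 0.29 to 0.39 in WT and from -0.01 through 0.33 to 0.36 in Per3-/- eyes. On both Cryab probes the WT range overlapped that of Per3-/-.

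The acidic β-crystallins were in the upper part of the scanner's range without reaching its top. Cryba1 reached between 65.4% and 96.8% of the range, Cryba2 between 55.7% and 80.8% and Cryba4 between 52.0% and 85.9%. Cryba1 had values of 8.35, 8.55 and 8.71 in WT and 8.22, 8.58 and 8.93 in Per3-/- eyes. Cryba2 had 7.79, 8.28 and 8.31 in WT and 7.78, 8.17 and 8.56 in Per3-/- eyes, and Cryba4 had 8.03, 8.33 and 8.80 in WT and 7.77, 8.42 and 8.78 in Per3-/- eyes. Of the basic β-crystallins, Crybb2 had 8.03, 8.16 and 8.60 in WT and 7.77, 8.28 and 8.52 in Per3-/- eyes.

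Crybb1, Crybb3 and Crygs had the widest ranges between mice. Crybb1 had 6.11, 6.46 and 7.03 in WT and 5.70, 6.58 and 6.89 in Per3-/- eyes on its reported probe. Crybb3 had 6.58, 6.85 and 7.34 in WT and 6.21, 6.96 and 7.33 in Per3-/- eyes, and Crygs had 5.71, 6.06 and 6.66 in WT and 5.56, 6.20 and 6.28 in Per3-/- eyes. Over the 14 eyes the SD was 0.37 for Crybb1, 0.31 for Crybb3 and 0.29 for Crygs, against 0.14 for the reported Cryaa probe and a median of 0.18 over the 27934 probes well above background on every eye array (quartiles 0.13 and 0.28).

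The genotypes were then compared within each tissue. None of the 12 probes was called in the eye (limma, adjusted p = 1 for each probe). All 12 also had an unadjusted p above 0.05, and the unpaired test named in the methods of the study called none either. Over the array 8 of 41174 probes (0.0194%) were called, and 743 had an unadjusted p under 0.05. The differences, Per3-/- minus WT, ran from -0.05 for the second Cryaa probe to 0.03 for the second Cryab probe, with a median of -0.01 over the 12 probes and 0.00 over all probes. The 95% intervals bound what could have been missed. For Cryba1 the ratio of Per3-/- to WT lay between 0.875 and 1.17, for the reported Cryab probe between 0.832 and 1.23, for Cryba4 between 0.812 and 1.27 and for Crybb3 between 0.757 and 1.24. The widest interval in the eye, that of the second Crybb1 probe, ran from 0.73 to 1.35. With 1 spot at the top of the range on most arrays, the interval of the reported Cryaa probe (0.884 to 1.13) is no bound on the RNA, and that of the second probe was 0.814 to 1.15.

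In the hypothalamus the genotypes did not separate either. None of the 12 probes was called (limma, lowest unadjusted p = 0.138, for Cryba4, adjusted p = 0.991), none had an unadjusted p under 0.05, and the methods' unpaired test called none. Over the array 17 probes (0.0413%) were called, and 1161 had an unadjusted p under 0.05. For the reported Cryab probe the ratio of Per3-/- to WT lay between 0.901 and 1.28, and for Crybb3 between 0.939 and 1.12. The 8 Per3-/- values of Cryba4 ran from -3.72 to -3.16 and the 8 WT values from -3.83 to -3.47, and 3 Per3-/- mice stood above every WT mouse. The median difference over the 12 probes was 0.05, against -0.01 over all probes.
A genotype by tissue term, fitted by limma on the 30 arrays together with mouse as random effect, was called for 0 of 12 probes (none at an unadjusted p under 0.05) and for 2 of 41174 over the array (0.00486%). Of the 41174 probes 909 had an unadjusted p under 0.05 for this term.

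**Figure D1:**
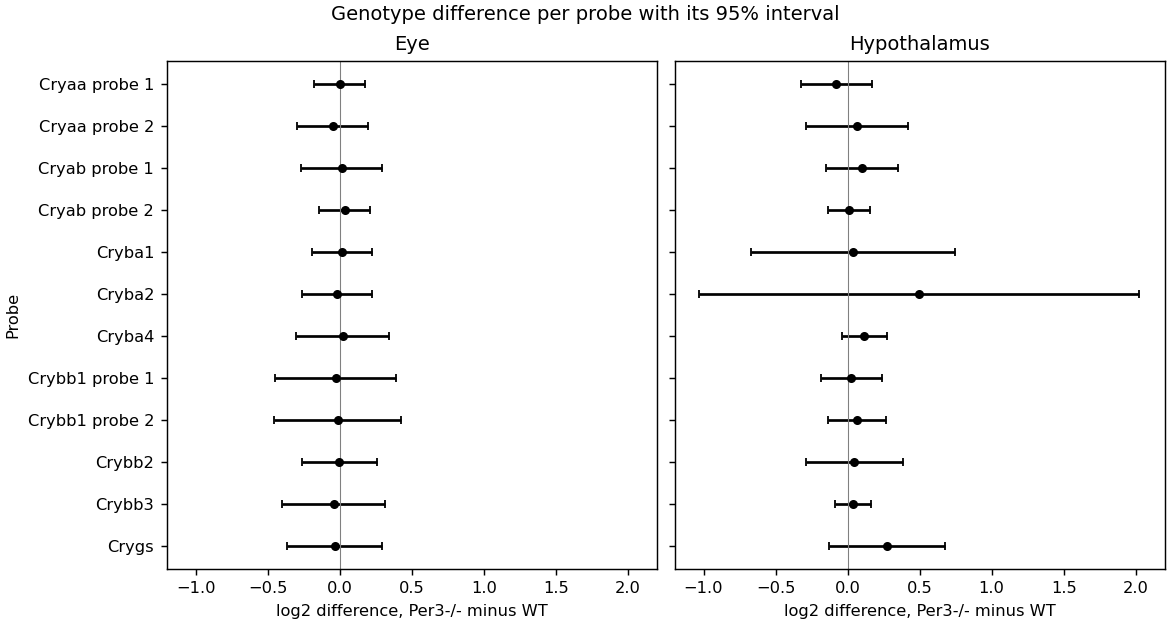
Difference in log2 signal between Per3-/- and WT mice for each of the 12 crystallin probes in the eye (left, 7 mice of each genotype) and the hypothalamus (right, 8 of each). Points are the estimates of the linear model and bars their 95% intervals. Every interval includes 0, and that of Cryba2 in the hypothalamus, from -1.03 to 2.02, is the widest.

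The wider pathway did not separate the genotypes by this test in either tissue. Of the other crystallins on the array, 0 of 8 probes of 6 genes were called in eye tissue, and none in hypothalamus, by limma. The same held for 18 probes of 13 lens fibre genes, 19 probes of 12 transcription factors known from the lens and 9 probes of 7 other small heat-shock proteins. Of these lists only that of the transcription factors held a probe with an unadjusted p under 0.05, 1 in the hypothalamus.

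The tissues of WT mice were compared next, with the mouse as a random effect. Of the 12 crystallin probes 11 were higher in the eye and 1, the second Cryab probe, was higher in the hypothalamus. Over the array 42.1% of probes were higher in eye and 33.6% higher in hypothalamus (17328 and 13817 probes), and with each array's median as the scale 12679 of the 31995 probes called were higher in the eye. The 11 probes were higher under every scaling tried.

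Cryba1, Cryba2, Crybb2, Crygs and the second Cryaa probe had little or no signal in the hypothalamus. Cryba2, an acidic β-crystallin, was not well above background on any of the 8 WT hypothalamus arrays. Set per array against the higher of its own value and the faintest spot well above background, its eye level was 25775-fold higher. This is no firm bound, because the difference was 12.71 on the log2 scale under the alternative that gave the smallest one. As measured the difference was 15.77 (SE 0.55, limma adjusted p = 4.6e-21). Cryba1 was well above background on 1 of 8 WT hypothalamus arrays, the second Cryaa probe on 4, and Crybb2 and Crygs on 5 each, so the measured differences of 15.69, 14.71, 14.03 and 12.04 on the log2 scale (SE 0.26, 0.15, 0.14 and 0.17) rest in part on background signal. The reported Cryaa probe was well above background on all 8 WT hypothalamus arrays, at a mean of -4.47 ± 0.18 (SD, n = 8), and differed by 13.17 (SE 0.10), a difference held down by the top of the range in the eye.

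Cryba4, Crybb3 and Crybb1 were well above background in every hypothalamus. Cryba4 had a lowest, median and highest value of -3.83, -3.61 and -3.47 in WT and -3.72, -3.55 and -3.16 in Per3-/- mice. Crybb3 had -3.39, -3.21 and -3.09 in WT and -3.30, -3.22 and -2.98 in Per3-/- mice. The reported Crybb1 probe had -1.84, -1.49 and -1.30 in WT and -1.68, -1.51 and -0.96 in Per3-/- mice. In WT mice Cryba4 was 3956-fold, Crybb3 1137-fold and Crybb1 254-fold higher in the eye than in the hypothalamus. A whole tissue does not tell fewer cells of a type from less RNA per cell.

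Cryab was the exception, with a clear level in the hypothalamus on both probes and a direction that depended on the probe. On the reported probe the 8 WT hypothalami ran from 2.98 through 3.46 to 3.93 and the 8 Per3-/- hypothalami from 3.37 through 3.61 to 3.81. The level in the WT eye was 16.6-fold higher (difference 4.05, 95% interval 3.80 to 4.31, adjusted p = 1.6e-22), and every eye stood above every hypothalamus. On the second probe the WT hypothalami ran from 0.68 through 0.85 to 1.08, and the WT eye was lower by 0.65 (95% interval -0.80 to -0.51, adjusted p = 1.9e-09). Every WT eye stood below every WT hypothalamus on that probe. The direction of each probe was kept under every scaling, with the difference between 3.63 and 4.15 for the reported probe and between -1.08 and -0.60 for the second.

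**Figure D2:**
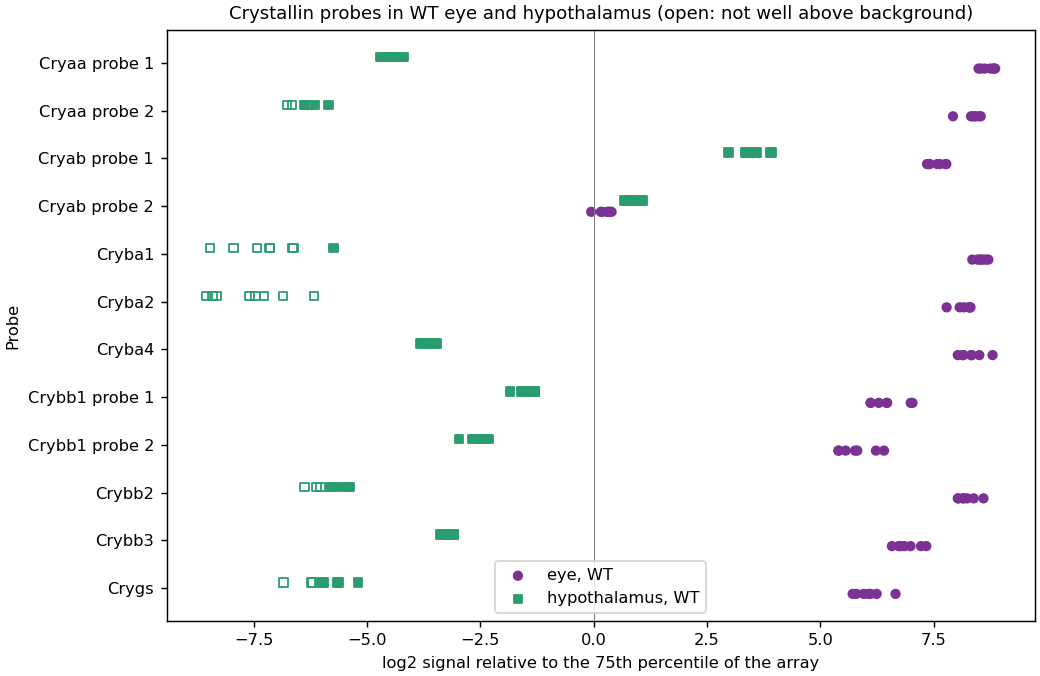
Log2 signal relative to the 75th percentile of the array for the 12 crystallin probes in 7 WT eyes (circles) and 8 WT hypothalami (squares), with 1 point per mouse and open points for spots not well above background. Of the 12 probes 11 lie far to the right in the eye, and probe 2 of Cryab lies lower in the eye (-0.06 to 0.39) than in the hypothalamus (0.68 to 1.08).

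The other genes of the lens showed the same contrast. All 8 probes of the other crystallins and all 18 probes of the lens fibre genes were higher in the eye. Among them the lens aquaporin Mip was at 5.59 in the WT eye and well above background on 0 of 16 hypothalamus arrays, and the beaded filament gene Bfsp1 was at 7.02 in the WT eye and -4.26 in the WT hypothalamus. Of the 19 probes of lens transcription factors 15 were higher in eye tissue and 2 lower. Maf, which encodes a factor that binds crystallin promoters, was at 5.65 in the WT eye and 0.99 in the WT hypothalamus, and Pax6, an early regulator of eye development, was at 1.62 and -3.28. Of the 9 probes of other small heat-shock proteins 8 were higher in the eye. Hspb2, the neighbour of Cryab, was at 1.98 in the WT eye and -1.94 in the WT hypothalamus, and thus went the way of the reported Cryab probe.

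On the scaled signal most crystallins rose and fell together from eye to eye. Per3-/- mouse 5 then had the lowest value of all 14 eyes for each of the 9 genes, by 0.23 to 0.78 below the mean of the gene. For Cryaa this value rests on the scale of the array, because its reported probe was at the top of the scanner's range in that eye. WT mouse 4 had the highest value for 5 genes and Per3-/- mouse 3 for the other 4, with mean deviations of 0.33 and 0.31. Over all pairs of the 9 genes, with the mean of each genotype taken out, Pearson's r ran from 0.30 (Cryaa with Crybb1) to 0.96 (Crybb1 with Crybb3), with a median of 0.78. Of the 36 pairs 32 passed (permutation test with 100000 resamples within genotype, two-sided, Benjamini-Hochberg adjusted p under 0.05 over the 36), and 26 passed by Spearman's rho. Among the 32 were 4 pairs with Cryaa, which the limit of its reported probe affects. Crybb1 with Crybb3 had r = 0.96 (rho = 0.93, permutation p = 1e-05 for both, the smallest these resamples can give, adjusted p = 0.00018), and Cryab with Cryba1 had r = 0.94 (rho = 0.88, permutation p = 3e-05 and 0.00026, adjusted p = 0.00018).

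The scale of the arrays moved with these values. The scaled signal of all 12 probes was lower on arrays with a higher 75th percentile, with r from -0.38 for the reported Crybb1 probe to -0.91 for the reported Cryaa probe over the 14 eyes. Per3-/- mouse 5 had the highest percentile (1644) and Per3-/- mouse 6 the lowest (1131). With no scaling between arrays Per3-/- mouse 5 was the lowest eye for 4 of the 9 genes (Cryba4, Crybb1, Crybb2 and Crybb3), Per3-/- mouse 6 for 3 (Cryaa, Cryba1 and Cryba2), and WT mouse 3 was the highest for 7. Also with no scaling 20 of 36 pairs passed and 33 had a positive r. The reported Cryaa probe then passed with 0 of 8 other genes, Crybb1 with Crybb3 kept r = 0.96 and Cryab with Cryba1 r = 0.94. With the second Cryaa, Cryab and Crybb1 probes in place of the reported ones 31 of 36 pairs passed, Cryaa with 7 of 8 other genes and Cryab with 3 of 8.

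The count of pairs also rested on a few eyes. Without Per3-/- mouse 5 it was 18 of 36, and without any other single eye between 27 and 32. Without the 2 eyes farthest from the median of the first gene of each pair 15 passed, and r was then 0.92 for Crybb1 with Crybb3 and 0.87 for Cryab with Cryba1. After slide means were removed 21 passed, with r from 0.25 to 0.94. The resamples were still drawn within genotype and not within slide, so this count, and any that rests on it, may be too high. By Pearson's r 14 pairs passed as measured, with no scaling, with slide means taken out and without those 2 eyes. None of them was with Cryaa or Cryba2 and 1, that with Cryba4, was with Crybb2. Not all 14 passed by Spearman's rho, by which 15 of 36 pairs passed with slide means taken out and 12 without those 2 eyes. Cryba4 with Crybb3 had a permutation adjusted p = 0.167 by rho with slide means taken out. With quantile normalization Cryba1 with Cryba4 did not pass (r = 0.57, permutation adjusted p = 0.0663).

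**Figure D3:**
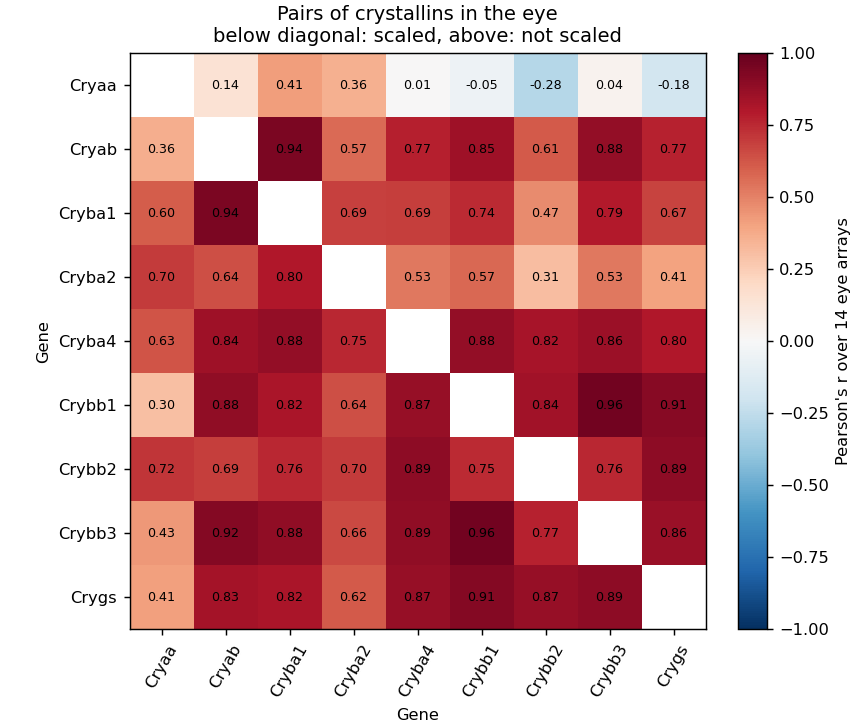
Pearson's r between the reported probes of the 9 crystallin genes over 14 eyes, with the mean of each genotype taken out. Below the diagonal the signals are scaled to the 75th percentile of each array (r from 0.30 to 0.96), and above it they are not scaled, where the row of Cryaa runs from -0.28 to 0.41 and Crybb1 with Crybb3 keeps 0.96.

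The slides held part of the spread. On slide 2 (WT and Per3-/- mice 3 and 4) the mean was the highest of the 4 slides for 8 of the 9 reported probes, Cryaa being the exception. Crybb1 had a mean of 6.91 on slide 2 against 6.34, 6.22 and 6.38 on slides 1, 3 and 4, and Crybb3 had 7.27 against 6.91, 6.65 and 6.80. In a test over the 4 slides with genotype in the model none of the 12 probes passed (limma F test, lowest adjusted p = 0.0501, for the second Crybb1 probe). Over the array 15.5% of probes passed. An unadjusted p under 0.05 was found for 5 of the 12 probes, and for 9790 of 41174 over the array. With each array's median as the scale 8 of the 12 passed, and 20.6% of all probes did. The other crystallins passed with 3 of 8 probes and the lens fibre genes with 6 of 18. What the mice on a slide shared besides the slide is not given in the sources used here, so slide and mouse cannot be told apart.

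**Figure D4:**
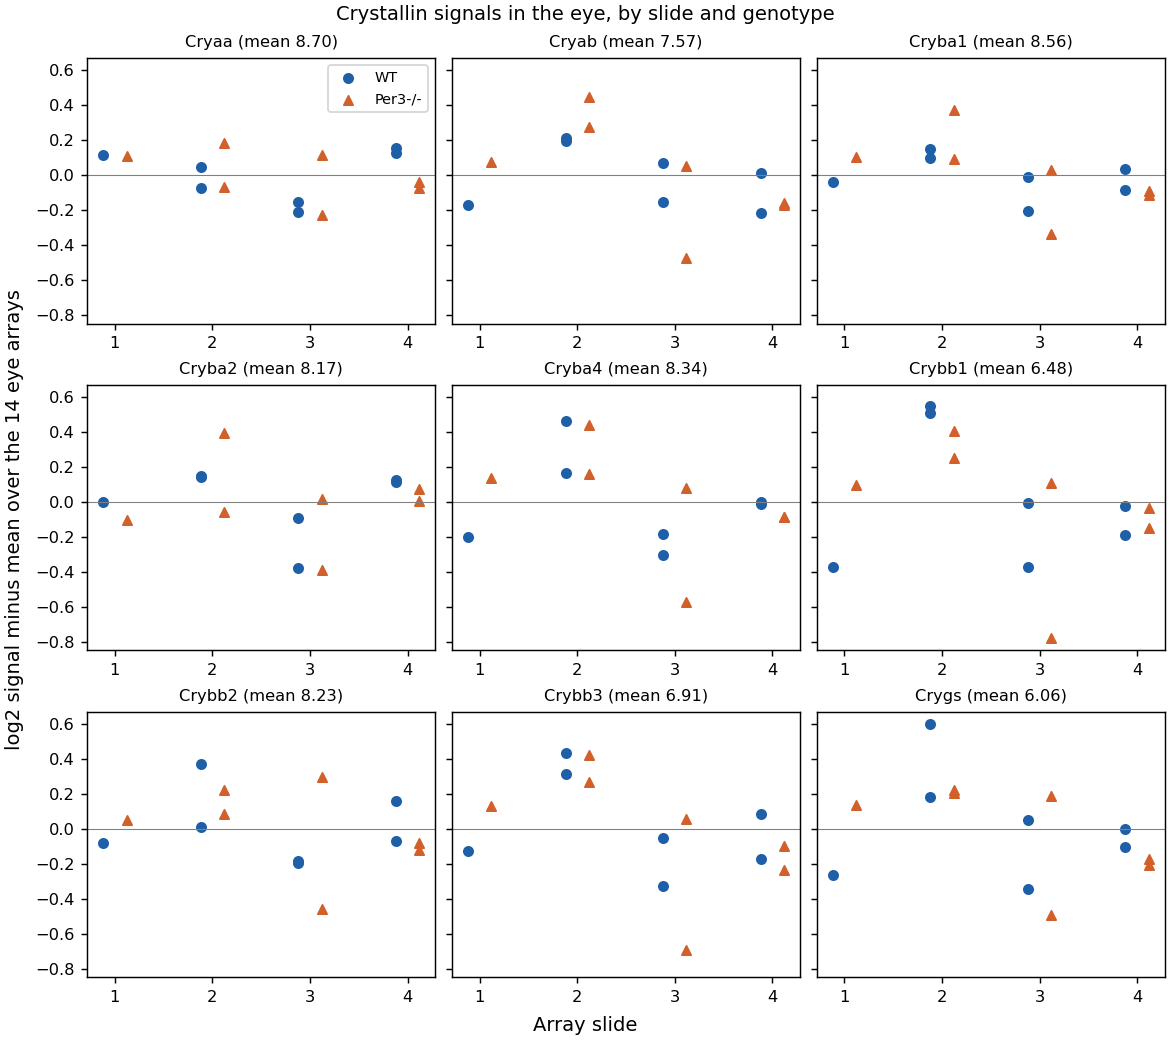
Log2 signal of the reported probe of each of the 9 crystallin genes in 14 eyes, minus its mean over them, by array slide (1 to 4) and genotype (circles WT, triangles Per3-/-). Slide 2 lies above the mean for most genes, and Per3-/- mouse 5 on slide 3 is the lowest eye for all 9 on this scale, at -0.78 for Crybb1, but for 4 of 9 with no scaling between arrays.

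The genes whose pattern over the eyes was most like the mean of the 9 members, by Pearson's r over 14 eyes with genotype means taken out, were Smap2 (r = 0.97), the γ-crystallin Crygc (0.97), Pbx4 (0.96), the γ-crystallin Cryga (0.96), the beaded filament gene Bfsp2 (0.95), NAP103733-1 (0.95), Zic4 (0.95), Atxn7l3b (0.95), Elf4 (0.94) and Acrbp (0.94). Of the 27884 probes compared 0.965% had an r over 0.8. With no scaling between arrays r was 0.53 for Atxn7l3b and between 0.77 and 0.97 for the other 9 genes. Among the genes listed for the lens, 13 of 13 fibre genes had a positive r with the member mean (median 0.84, from 0.14 for Tdrd7 to 0.95 for Bfsp2), as had 6 of 6 other crystallins (median 0.91). Of the lens factors Pitx3 had r = 0.90, Hsf4 0.88 and Maf 0.74, whereas Pax6 had -0.14.

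Markers of the other tissues in the eye did not all move with the crystallins. The mean of 11 rod and cone genes had r = 0.65 with the member mean, that of 6 corneal genes 0.04 and that of 6 pigment epithelium genes 0.05. The mean of 8 skeletal muscle genes had r = -0.55, and all 8 genes had a negative r (from -0.68 to -0.34). The muscle mean ran from 4.32 to 5.61 in WT and from 4.53 to 5.76 in Per3-/- eyes. Its part in the spread of the crystallins was not tested.

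The genes with 2 probes gave a second reading of the spread between mice. The 2 Crybb1 probes followed each other closely, with r = 0.96 over 16 hypothalami (rho = 0.87, permutation p = 1e-05 and 2e-05, adjusted p = 3e-05 over 6 relations between probes of a gene in a tissue) and r = 0.99 over 14 eyes (rho = 0.97). Of the hypothalami that of Per3-/- mouse 7 had the highest value on both, -0.96 and -2.09, and that of WT mouse 8 the lowest on both, -1.84 and -2.97. Without the 2 hypothalami farthest from the median r was 0.87, and with slide means taken out 0.99. By contrast the 2 Cryab probes had r = 0.39 over the hypothalami (rho = 0.33, permutation p = 0.138 and 0.232, adjusted p = 0.207) and 0.31 over the eyes (rho = 0.02, permutation p = 0.288 and 0.951), and the 2 Cryaa probes, faint in the hypothalamus, had r = 0.04 there (rho = 0.09).

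Cryab was then set against glial markers, since glia of the brain are known to make it. On the reported probe 0 of 4 relations passed (permutation test, 100000 resamples, two-sided, adjusted over the 4, lowest unadjusted p = 0.176), and with no scaling between arrays 0 of 4 did (lowest unadjusted p = 0.013, adjusted p = 0.0519). These were with Hspb2 (r = -0.18), with the mean of 9 oligodendrocyte genes (r = 0.36), with the mean of 8 astrocyte genes (r = 0.07) and with Cryab in the eye of the same mouse (r = 0.06 over 14 mice). On the second probe, a choice made after its values had been seen, Cryab followed the oligodendrocyte mean with r = 0.86 over 16 hypothalami (rho = 0.86, permutation p = 5e-05 and 6e-05, adjusted p = 0.00015 over 3 cell type lists). It had r = 0.72 with the astrocyte mean (rho = 0.69, permutation p = 0.00263 and 0.00585, adjusted p = 0.00394) and r = 0.37 with the mean of 6 neuron genes (rho = 0.48, permutation p = 0.169 and 0.0681, adjusted p = 0.169). The neuron mean was not kept apart from the others, since its r with the second probe was 0.75 without the 2 hypothalami farthest from the median (permutation p = 0.00186, adjusted p = 0.00279) and 0.83 with no scaling (permutation p = 0.0002, adjusted p = 0.0002), and whether the lists differ was not tested. With no scaling and only the 3 lists in the adjustment, the reported probe passed with the oligodendrocyte mean as well (r = 0.62, permutation p = 0.013, adjusted p = 0.0389, rho = 0.43, adjusted p = 0.149). For the second probe r with the oligodendrocyte mean was 0.78 without the 2 hypothalami farthest from the median and 0.87 with slide means taken out. Without any single mouse it lay between 0.80 and 0.91. The reported probe had r = 0.23 without the 2 farthest hypothalami and 0.41 with slide means taken out. Of the 27151 probes well above background in every hypothalamus 0.0921% had an r with that mean as high as the 0.86 of the second probe. The oligodendrocyte mean ran from 3.48 to 3.95 in WT and from 3.39 to 3.82 in Per3-/- hypothalami, with Mbp, a main protein of myelin, at 6.87 in WT.

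**Figure D5:**
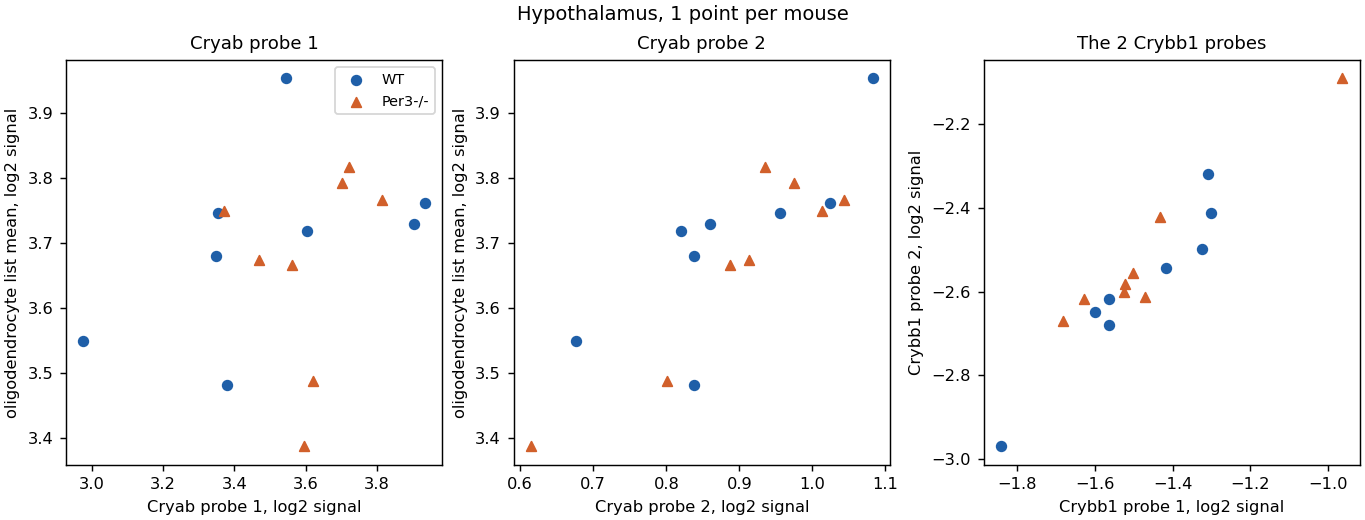
Log2 signals in 16 hypothalami, 1 point per mouse (circles WT, triangles Per3-/-). The oligodendrocyte list mean is plotted against the reported Cryab probe (left, r = 0.36) and the second Cryab probe (middle, r = 0.86), and the 2 Crybb1 probes are plotted against each other (right, r = 0.96), with Per3-/- mouse 7 at the upper end.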

How the data were processed

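RNA of the whole eye (7 WT, 7 Per3-/-) and hypothalamus (8 and 8) was hybridised to 1-colour Agilent arrays. Per the file headers the authors extracted spot intensities with Feature Extraction 10.7.1.1, which subtracts background, and the deposited processed intensities are on a linear scale. Bright eye spots came from a second, dimmer scan scaled up. The deposited log2 values are these signals relative to the 75th percentile, minus each probe's median over the arrays of a tissue, which was checked against the intensities (99.8% of eye values within 0.01). Scale, centring and direction are thereby known, and column medians lay between -0.073 and 0.080.

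Control probes were dropped, which left 41174 probes, and each signal was expressed as log2 of its ratio to the 75th percentile of its array. At most 91 spots an array, which the software had marked uneven or as outliers, were omitted. Linear models (limma 3.58.1, R 4.3.3) were fitted over all probes with Benjamini-Hochberg adjustment and a threshold of 0.05. Tissue and interaction models held the mouse as a random block (correlation 0.059). Fits were tested on simulated data. Permutation tests used Python 3.11.15, numpy 2.4.6 and scipy 1.17.1. Correlations took genotype means out, and the slide alternative took slide means out as well. Its resamples were within genotype only.

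The 25775-fold difference of Cryba2 uses the mean WT eye value. For each WT hypothalamus array it was set against the higher of Cryba2's own value and the lowest signal of a probe well above background. The number of arrays limits the precision. A gene with several probes was to be reported by the probe with fewest eye spots marked saturated and, among equals, the highest mean signal. No spot carried the mark, so the highest mean signal decided. For Cryaa this took the probe at the top of the scanner's range on 11 of 14 eye arrays. From other lists up to 4 genes past the threshold or of highest signal were to be named, and the 10 genes most like the member mean. Genes named beside these were chosen after their values were seen. The members and lists were chosen with earlier results of these data known. Probe names follow current RefSeq symbols where matched (26918 probes by accession, 5082 by symbol, 817 by synonym, 8357 as in the files). Positions are those of the hypothalamus array files, on mm9. Alternatives were quantile normalization, median scale, normexp correction (offset 50), detected probes only, spots left out where saturated or at 99% of the scanner's range, slide or replicate blocks, the methods' unpaired test, the deposited log2 values and leaving out each replicate.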

Additional observations from a re-analysis of the deposited data

Results flagged for a closer look

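Dixon's test for a sample far from the others was applied to 48 groups, 12 probes in 4 groups of 7 or 8 mice, and marked 4, where chance marks about 1 in 20 groups. The second Cryaa probe was low in the eye of WT mouse 6, at 7.93 against 8.33 for the next lowest WT eye. Cryba2 was high in the hypothalamus of Per3-/- mouse 1, at -2.42 against -6.73 for the next highest Per3-/- mouse, and the spot was well above background in that hypothalamus and in none of the other 15. The other acidic β-crystallin with a faint signal, Cryba1, was at -7.55 in that mouse and not well above background. Both Crybb1 probes were high in the hypothalamus of Per3-/- mouse 7, at -0.96 against -1.43 for the reported probe and at -2.09 against -2.42 for the second.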

How the results depend on the processing

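No crystallin probe was called for genotype in either tissue under any alternative, and all 12 kept their call and direction between the tissues of WT mice. Leaving out each replicate gave 0 calls throughout (0 to 0 in both tissues). Over the alternatives the lowest adjusted p for genotype was 0.756 for eyes and 0.473 for hypothalami. The genotype by tissue count stayed 0.

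The count of probes called for slide in the eye, 0, became 8 with each array's median as the scale (20.6% of all probes), 1 with detected probes only (12.4%), and 4 without slide 1 (16.4%) or without slide 3 (14.8%), against 15.5% as measured. Over the array 6383 probes passed for slide, 2 with normexp and 2389 without slide 4. The settings without a slide were chosen after the data were seen, as was every setting without scaling, with the ceiling left out or with another probe. The 32 pairs by Pearson's r became 21 with quantile normalization, of which 5, all with Cryaa, were negative. They became 20 with no scaling, 21 with slide means taken out, by resamples not kept within slide, and 15 without the 2 farthest eyes. Leaving out 1 eye gave 18 (without Per3-/- mouse 5) to 32. Cryab passed with 0 of 4 relations on the reported probe and 2 on the second. Against the 3 cell type lists with no scaling, the reported probe passed with the oligodendrocyte mean (r = 0.62, adjusted p = 0.0389) and the second also with the neuron mean (r = 0.83, adjusted p = 0.0002). The cause was not tested.

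With the replicate number as a block 0 member probes were called in each tissue. Same-numbered mice of the 2 genotypes deviated together in 5 of 6 pairs in the eye (correlations 0.0014 to 0.679, 8 of 12 mice closest to their own number) and in 4 of 8 in the hypothalamus (-0.20 to 0.40, 2 of 16), each with a correlation over 0.1. Not every pair did and the labels state no pairing, so the mice were treated as unpaired, although in the eye most same-numbered mice deviated together. Same-numbered mice were on the same slide in each tissue, so a shared number cannot be told apart from a shared slide. The block moved the calls over the array from 8 to 1 in the eye and from 17 to 5 in the hypothalamus. Scaling moved the median of all probes between WT tissues from 0.15 to -0.07 (quantile), -0.27 (array median) and 0.13 (normexp), far less than the 11 differences above 4.

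Faint hypothalamic signals (Cryaa probe 2, Cryba1, Cryba2, Crybb2, Crygs) and Cryaa at the top of the range limit what these arrays can show.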
